A study of Mus musculus with 2 samples.

Results

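The splice junctions described here are those that the authors' combined junction file of mouse testis marks with the class tag A=1, read as already annotated, and that met both limits of reproducibility and length. Members were chosen by measured values: a fraction in column 8 of at most 0.1, read as the irreproducible discovery rate, together with a span under 100000 bases. Of 649521 junction records, 142937 (22.0%) were members. A junction is the gap that a spliced read skips, so its span is the length of the removed intron.

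Poly(A)-selected, rRNA-depleted RNA from testes of male C57BL/6J mice aged 8 weeks was sequenced in 2 libraries, as stranded pairs of 76 nucleotides. The labels name littermates as the source, and give no treatment, so there was 1 group and no comparison between groups. Both libraries carry the same donor identifier, so whether they came from separate animals is not settled and differences between them measure only the spread between these samples. The file splits each count into values named R1 and R2, which always add up to the count and are not defined in the file. How they followed the 2 libraries is described below with gene TPM.

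Splicing removes introns from the primary transcript and joins the exons on either side. The spliceosome recognises a donor site at the intron's 5' end, which usually begins with GT, and an acceptor site at its 3' end, which usually ends with AG. Testis is known for a very diverse transcriptome, and the haploid spermatids express large amounts of RNA for the proteins that package sperm DNA and build the tail. In male meiosis the X and Y chromosomes are known to be silenced.

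The joins of the junctions with most reads are shown first because they head the ranking of reads that the results below describe. Each sequence is 15 bases of the upstream exon followed by 15 bases of the downstream exon in the GENCODE M21 transcript, written 5' to 3' in transcript direction. Capitals mark the 2 bases on each side of the join. Positions are those of the junction file on mm9 and give the intron from its first to its last base.

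Prm1 (chr16:10796627-10796718, minus strand, 275733 reads): ggcggaggaggcgAAGAtgctgccgtcgcc
Prm2 (chr16:10791728-10791832, minus strand, 104574 reads): ggcggcatcgcagAGGCtgcagaagatccc
Tuba3a (chr6:125232997-125235985, minus strand, 73884 reads): ccggagttcagcaTGCGtgagtgtatctct
Ldhc (chr7:54117266-54121778, plus strand, 70591 reads): agtattttactgaAGGGtttggctgatgaa
Tnp1 (chr1:73061900-73062298, minus strand, 68113 reads): aacggggcgatgaTGCAagtcgcaattacc
Oaz3 (chr3:94240048-94240309, minus strand, 53301 reads): ttgttgttacaaaAGCAtcacttacaagga
Gsg1 (chr6:135187764-135190090, minus strand, 50071 reads): cggctgggccttcTACAcagcgtgggtttc
Tnp2 (chr16:10788187-10788357, minus strand, 49367 reads): agaggcgtagctcAGGGcgaagatacaagt
Gsg1 (chr6:135203351-135204150, minus strand, 48817 reads): tgtctcacccaggAGATcttcagaacaaaa
Pabpc1 (chr15:36528068-36528706, minus strand, 44724 reads): gtgccagacctcaTCCAttccagaatatgc

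All of these introns lie between coding exons in M21 except the second Gsg1 intron, which lies in the 5' UTR. Gene names were found by the geometry of neighbouring introns, and the Tnp1 name alone among these needed neighbours as far as 200 kb away.

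A second set of joins is shown because it was the commonest form of close alternative splicing among the members: acceptors exactly 3 bases apart. The 3 pairs are among those with most reads at that distance and were chosen after their values were seen. For each gene the join to the nearer acceptor (the shorter intron) comes first, with the 3 extra exon bases in capitals, and the join to the farther acceptor follows in lower case.

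Fam229b near (chr10:38842142-38852052, minus strand): ctgcttcacagccagCAGgcaggaagctat
Fam229b far (chr10:38842139-38852052, minus strand): ctgcttcacagccaggcaggaagctatgtg
Spata3 near (chr1:87918925-87920901, plus strand): caagcaggaaagcagCAGtgcctctgacct
Spata3 far (chr1:87918925-87920904, plus strand): caagcaggaaagcagtgcctctgacctatg
Rnf19b near (chr4:128749187-128750742, plus strand): aagaatctggaccagCAGatgacatcaagc
Rnf19b far (chr4:128749187-128750745, plus strand): aagaatctggaccagatgacatcaagccat

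The reads that the rule used are given as a description only. Members held 40765809 reads, 90.5% of all junction reads in the file, of which 19906622 were R1 and 20859187 R2. The median member had 63 reads (quartiles 22 and 203), with medians of 29 in R1 and 33 in R2. The range ran from 5 to 275733 reads, and 39.4% of members had at least 100. Reproducible junctions tagged A=0 under the same limits, 60263 in number, had a median of 14 reads. Of all A=1 records, 79.8% were within the limit on column 8, against 13.3% of A=0 records.

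Column 8 followed column 9 alone. The file's column 9, a second and never larger count, took 2759 distinct values, and each of them carried exactly 1 value of column 8. Records with a column 9 value of 1, 2, 3 or 4 had 0.765, 0.372, 0.185 and 0.102 in column 8, and a value of 5 had 0.057. The limit therefore amounted to a column 9 value of at least 5, apart from 2 isolated values, 1217 and 1803, at which column 8 was 0.333 and 0.25. Those values left out 8 A=1 records with 1802 to 3559 reads, 6 of which had an R1 share between 42.7% and 52.3% of 1802 to 3428 reads. In contrast, 488 members had no R1 read and 737 had no R2 read.

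Just inside the limit, at 0.059, were 15 members with 873 to 1236 reads. Just outside it, at 0.102, were 5629 A=1 records with 4 to 14 reads. The 36372 A=1 records over the limit had a median of 2 reads and held 0.298% of A=1 reads. The 5 longest members spanned 99179 to 99904 bases, and the 5 shortest A=1 records beyond the length limit spanned 100079 to 100199 bases with 13 to 706 reads. Length removed 372 A=1 records that had passed column 8.

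Reads were concentrated in few members. The single Prm1 junction held 0.676% of member reads, the top 10 held 2.06%, the top 100 held 7.24%, and the 1430 members of the top 1% held 27.1% (95% Wilson interval 27.12 to 27.14, counting error only). The top 1% by R1 held 27.6% of R1 and the top 1% by R2 held 26.8% of R2, and 1267 of these 1430 members (88.6%) were the same. It took 6071 members (4.25%) to hold 50% of the reads, while the lower-ranked 50% of members held 4.47%. The plot of cumulative read share shows R1 and R2 on nearly the same curve.

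**Figure D1:**
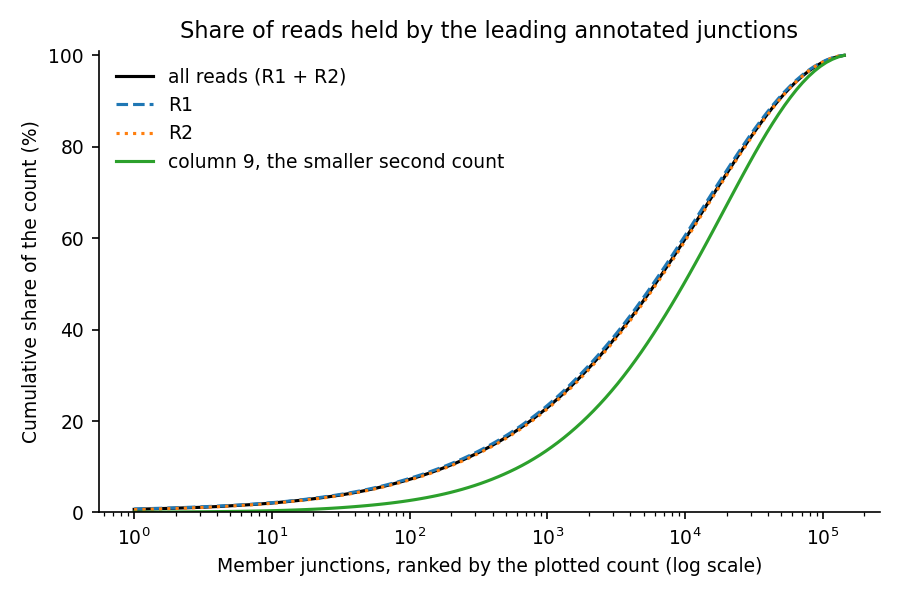
Cumulative share of a count (vertical axis, percent) held by members ranked from the highest count (horizontal axis, log scale), for all reads, R1, R2 and column 9. The top 1430 members held 27.1% of reads but 17.2% of column 9, whose curve lies lower throughout the middle of the ranking.

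By column 9 the same concentration was weaker: its top 1% held 17.2%. Column 9 was a median 0.727 of the read count over all members and 0.44 in the top 1%. The order at the head changed too. Prm2 led by column 9 with 11909, followed by a Gsg1 junction with 10383 and by Prm1 with 9830.

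Names could be given to most members although the junction file is on mm9 and M21 is on mm10. A junction was matched to an annotated intron through at least 1 neighbouring member within 30 kb. The pair had to have the same chromosome, strand, lengths and distance as 2 annotated introns, and only 1 annotated intron could fit. This held for 139921 members (97.9%), with a median of 17 agreeing neighbours. Of these, 138324 lay in 1 gene and were named by it, and 1597 lay in several genes and were left without a gene name. With strands swapped as a decoy, 34 members (0.0238%) matched. Only 10.2% of the reproducible A=0 junctions matched an M21 intron in this way. Within 200 kb, 99.2% of members matched.

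The matched members covered 139903 of 284419 introns in M21. Those named to 1 gene fell in 14810 genes, of which 13819 were protein-coding, 434 antisense and 253 lincRNA genes. Protein-coding genes held 99.2% of the reads of members named to 1 gene. Of the matched introns, 91% lay between coding exons, 5.09% in a 5' UTR, 0.896% in a 3' UTR and 3.01% in a non-coding transcript. A gene had a median of 7 members (quartiles 3 and 13). Ubr4, a very large ubiquitin ligase, had the most, with 106 of 112 annotated introns.

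Sperm chromatin genes held 4 of the 10 junctions with most reads, with Prm1 and Prm2 at the top. Prm1 and Prm2 encode protamines, which replace histones in the sperm nucleus, and Tnp1 and Tnp2 encode transition proteins, which precede the protamines there. The Prm1 junction had 148993 reads in R1 and 126740 in R2, the Prm2 junction 50401 and 54173, the Tnp1 junction 31859 and 36254, and the Tnp2 junction 25149 and 24218. Each of these introns is short, at 92, 105, 399 and 171 bases. Prm1 stood above every other member in both R1 and R2.

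The other 6 of these junctions were in Tuba3a, Ldhc, Oaz3, Gsg1 and Pabpc1. Those of Tuba3a and Ldhc ranked above Tnp1 in the sum of R1 and R2 only. In R1 Tnp1 was above Ldhc (31859 against 29121), and in R2 Tnp1 was above Tuba3a (36254 against 31316). Ldhc, the testis form of lactate dehydrogenase, had 29121 reads in R1 and 41470 in R2 at its leading junction. Oaz3, a germ cell antizyme of polyamine metabolism, had 23240 and 30061. Tuba3a, an alpha-tubulin, had 42568 and 31316, and since a near-identical tubulin gene exists, the assignment of its reads is uncertain. Gsg1 (germ cell associated 1) had 26109 and 23962 at its leading junction, and Pabpc1, the cytoplasmic poly(A)-binding protein, had 21263 and 23461. Between R1 and R2 the order of Tuba3a and Ldhc reversed.

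Summed over members, Prm1 led the genes with its single member, followed by Gapdhs, the sperm form of the glycolytic enzyme GAPDH, with 242147 reads over 11 members (121305 in R1, 120842 in R2). Ldhc had 217164 reads over 9 members, Atp8b3, a phospholipid flippase of the acrosome region, 183676 over 30, and Gsg1 174152 over 9. The rest of the leading 20 were Ybx2, Tcp11, Pabpc1, BC051142, Spata20, Eef2, Gstm5, Bag6, Oaz3, Clu, Tuba3a, Atxn2l, Slc25a39, Prm2 and Odf2, with 102049 to 172333 reads each. These 20 genes held 7.4% of member reads with 291 members. It took 708 genes (4.78%) to hold 50% of the named reads.

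Members of the same gene differed widely. Among 9517 genes with at least 5 members, the highest member had a median of 10.5 times the reads of the lowest (quartiles 5.17 and 26.8). In Ldhc the members ran from 625 to 70591 reads, in Atp8b3 from 38 to 13697, and in Gapdhs only from 9648 to 39092. Across 137014 members of genes with several members, 69.3% of the variance of log2 reads lay between genes, the rest within them.

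Gene lists of the testis cell types are described by the mean reads per member of each gene, beside a median of 68.3 over all 14810 genes. In bulk tissue, fewer cells of a type and less RNA per cell cannot be told apart. Of 14 genes of elongating spermatids, 10 had named members, with a median of 12708 mean reads per member. Among these 10, Prm1, Prm2 and Tnp2 were highest, and Hook1, a microtubule linker of the sperm head, was lowest with 487 (226 in R1, 261 in R2). Tnp1 and Smcp, the sperm mitochondrial capsule protein, were named only within 200 kb, with 68113 and 22201 reads. They are not part of that median or order, and Tnp1 had more reads than Tnp2, with 49367. Prm3 has no intron in M21.

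Odf1, an outer dense fibre protein of the tail, had no member in spite of a TPM (transcripts per 1000000) of 3369 and 3327. Its only M21 intron is 6428 bases long. On its chromosome and strand, 5 junction records had that length, all tagged A=0, and one of them had 21859 reads (10226 in R1, 11633 in R2). It was not named, since it had no member near it to compare distances with.

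Of 14 genes of round spermatids, 11 had members, with a median of 1289 mean reads. Dkkl1, an acrosomal protein, had 14148 mean reads (6306 in R1, 7842 in R2), Acr, the acrosomal protease acrosin, 2172, and Acrv1 1755. Izumo1, the sperm protein that binds the egg, had the lowest value, 573. Acrbp had 1622, which leaves out introns with 14202, 12354 and 11346 reads that also belong to Gm44597. The order and median of this list therefore depend on naming. Tssk1, Tssk2 and Tssk6, sperm kinases, have no intron in M21 and so could not be members. Of 20 spermatocyte genes, 18 had members, with a median of 352. Ldhc had 24129, Ybx2, a germ cell RNA-binding protein, 17233, and Piwil1, a piRNA-binding protein, 2038. The meiotic recombination gene Msh4 was lowest with 40.2.

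Among somatic cells, the Leydig list had members in 8 of 8 genes, with a median of 469 mean reads. Insl3, a Leydig cell hormone, had a single member with 40396 reads (19094 in R1, 21302 in R2), Cyp17a1, an enzyme of androgen synthesis, had 1378, Scarb1, a receptor for lipoprotein cholesterol, 1085, and Lhcgr, the receptor for luteinizing hormone, 33.8. The Sertoli list had members in 10 of 12 genes, with a median of 129. Clu (clusterin) had 11778, Inha, a subunit of inhibin, 586, and Cst12 561. Fshr and Rhox5 had none, at TPM values of 1.66 and 2.21 for Fshr and 8.24 and 13.4 for Rhox5.

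Genes of the splicing machinery had moderate values. All 22 genes of the major spliceosome had members, with a median of 230 mean reads. Snrnp70 and Snrpa, proteins of the U1 particle, had 750 and 746, Sf3b4 of the U2 particle had 727, and Cdc5l was lowest with 31.9. The 8 genes of the minor spliceosome, which removes a rare intron class, had a median of 107, from 17 in Zrsr2 to 257 in Snrnp25, with Zmat5 and Snrnp35 at 225 and 221. The 16 splicing regulators had a median of 290, led by Ptbp1 with 558, Khdrbs3 with 480 and Srsf7 with 445, and Hnrnpa1 was lowest with 14.5. R1 and R2 medians were 117 and 121, 56 and 52.2, and 128 and 161 in these 3 lists. The translation list had a median of 1317, from 28.2 in Rps6 to 10314 in Eef2, a translation elongation factor. Eef1a1 had 3629 and Rplp0 2581. Low reads per member did not always go with a low TPM. Hnrnpa1 had TPM values of 33 and 39.7, beside a median of 38.7 in its list. Rps6 had 261 and 243, beside a median of 217.5.

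The mean reads per member followed gene TPM, which was estimated from the same sequenced libraries. Spliced reads can count in both values, so part of this relation is built in. Across 13369 genes with a TPM of at least 1, Pearson's r of log2(value + 1) was 0.896 and Spearman's rho 0.892. The points share libraries and depth, and genes are not independent replicates. Pairing R1 with replicate 1 gave 0.893 and R2 with replicate 2 gave 0.896, against 0.876 and 0.871 when crossed. Across 11373 genes the log2 ratio of R2 to R1 followed the log2 ratio of replicate 2 to replicate 1 counts with r = 0.891 and rho = 0.764.

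**Figure D2:**
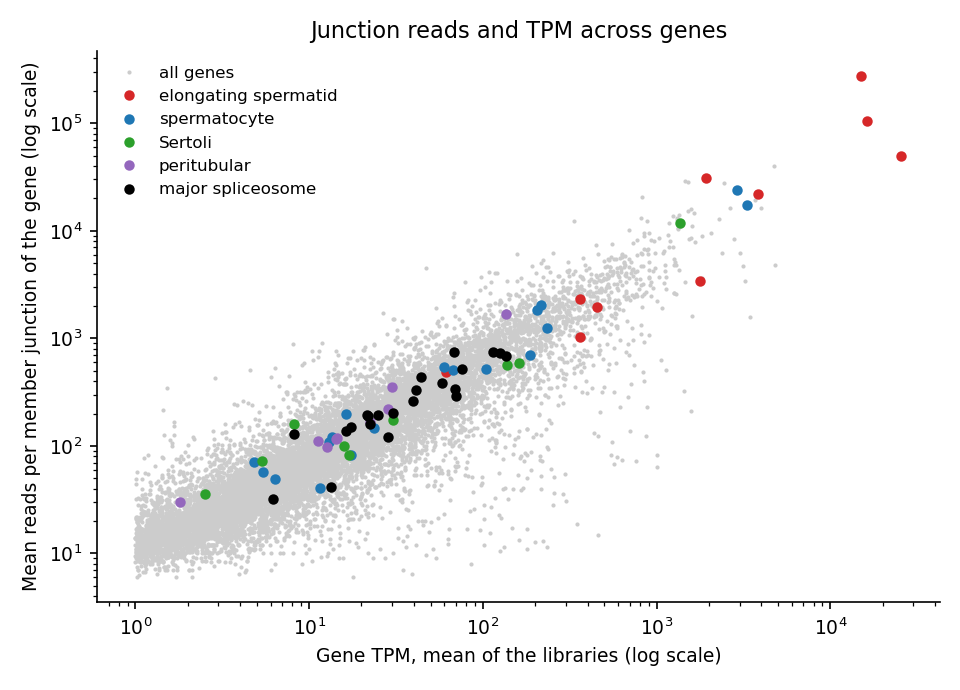
Each point is a gene with a TPM of at least 1: mean TPM of both libraries (horizontal, log scale) against mean reads per member junction (vertical, log scale), with 5 gene lists coloured. Genes of elongating spermatids lie at the upper end, Prm1 highest at 275733 reads, and some genes fall far under the main cloud, such as Lars2 with 14.9 mean reads at a TPM of 457.

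The share of genes with a member named to them within 30 kb rose with TPM. Membership itself required reads, so part of this rise follows from the rule. Of protein-coding genes with introns, 37.3% had such a member at a TPM of 0.1 to 1, 90.3% at 1 to 10, 97% at 10 to 100 and 97.3% above 100. Genes whose members were named only within 200 kb, such as Tnp1 and Smcp, counted as without a member, so these shares also depend on naming. The median gene had 7.32 mean reads per member for each unit of TPM (quartiles 5.07 and 9.96). Far below were Lars2, a mitochondrial leucyl-tRNA synthetase, and the ribosomal protein genes Rpl7a, Rpl29, Rpl31 and Rpl24, with 11 to 18.7 mean reads at TPM values of 180 to 457. Ribosomal protein genes have many near-identical copies, so their TPM and reads are uncertain. Far above were Mical3 with 504 mean reads at a TPM of 4.54, Bri3bp with 890 at 8.07, Tcte3 with 4519 at 46.7, Zfp423 with 534 at 6.33 and Rabif with 910 at 11.8. Tcte3 and Gm3417, both on chromosome 17, each had 4 members with a median span of 4610 bases, and Gm3417 had no TPM. How reads were assigned between them was not tested, so the Tcte3 values are uncertain.

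Spans had a median of 1283 bases (quartiles 435 and 3157), with a minimum of 33. The commonest span was 82 bases, in 403 members, and 5.91% of members were under 100 bases. The other reproducible junctions had a longer median, 1667 bases (519 and 5576), and 5.43% of them lay between 30000 and 100000 bases, against 1.96% of members. The span plot shows the members' sharp mode near 80 to 100 bases and their broad mode near 1000 to 3000 bases.

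**Figure D3:**
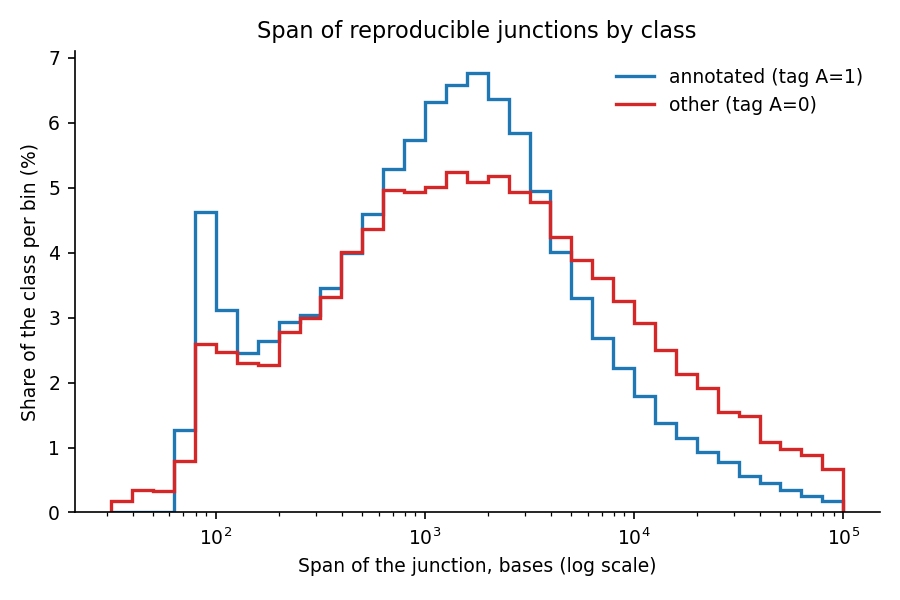
Share of each class (vertical axis, percent per bin) by junction span in bases (horizontal axis, log scale) for members and for reproducible junctions tagged A=0. Members have a narrow peak at 80 to 100 bases, which holds 4.62% of them against 2.59% of the other class, and fewer spans beyond 10000 bases.

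Short introns carried more reads each. The median fell from 105 reads under 80 bases (50 in R1, 54 in R2) to 82 at 100 to 300 bases, 60 at 1000 to 3000 bases and 33 at 30000 to 100000 bases (16 in R1, 17 in R2). In the other class the medians stayed between 13 and 15. Across members Spearman's rho of span and reads was -0.109, and members of a gene share its level. Within 5386 genes with at least 10 members the median rho was -0.075, below 0 in 60.7% of them.

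The longest and shortest members listed here had 7 to 68 reads, beside a median of 63 over all members. Dscaml1, a neural adhesion gene, held the longest member with 99904 bases and 8 reads (2 in R1, 6 in R2). Ssbp2 had 7 reads over 99423 bases, Rtn1 46 over 99381 bases and Mcph1 57 over 99179 bases, and an unnamed member on chromosome 18 had 8. The shortest, 33 bases on chromosome 11, had 13 reads and no name. Next came 2310061I04Rik with 50 bases and 45 reads, Spag6l with 51 bases and 16 reads, and unnamed members of 51 and 52 bases with 68 and 11 reads.

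Position along the transcript was followed in 2957 genes with a protein-coding transcript of at least 10 introns, all of them members. The introns nearest the 3' end, as many as the intron number divided by 3, had more reads than as many introns nearest the 5' end, by a median of 0.40 on the log2 scale (quartiles -0.30 and 1.02). The medians were 0.41 in R1 and 0.39 in R2, and 65.3% of genes lay above 0. First introns were longest, with a median of 3494 bases against 1126 for inner and 846 for last introns, and in 79.2% of these genes the first exceeded the inner median.

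Exon bases at the join were read from the M21 transcripts. Of 139857 matched introns with a sequence, 55.7% had AG as the last 2 exon bases before the join. G was the next exon base in 49%, and 27.6% had AG followed by G. Over all 283821 annotated introns with a sequence the shares were 55.1%, 47.5% and 26.7%. The intron ends themselves were not analysed here, apart from the last bases of the longer introns at close acceptors below.

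A second class tag, C, was 0 in 432 members (0.302%) and in 9.61% of the other reproducible junctions. The file does not define it. Members tagged C=0 had a median of 55.5 reads, close to the 63 of all members. Of 415 of them with a sequence, 10.8% had G after the join and 1.69% had AG before and G after it. The shares over all matched members were 49% and 27.6%. The leading C=0 members were in Hsbp1, a heat shock factor binding protein, with 22171 reads (10233 in R1, 11938 in R2), Mex3d with 3705 and Ipo5, an importin, with 3387. This choice of 3 was made with the values known. Their joins are given for comparison with those above, again with 2 bases on each side in capitals.

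Hsbp1 (chr8:121868903-121869512, plus strand): agatcatcggaagGATAgatgacatgagca
Mex3d (chr10:79843808-79843983, minus strand): ccacccaagccatTCGCgtcgaggccatca
Ipo5 (chr14:121338779-121340043, plus strand): tttatttccacgaTGGGgtccgagtggcag

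Most members stood alone: 88.8% shared neither end with another member. A donor was shared by several members at 4131 sites and an acceptor at 4697 sites, where the leading member held a median of 81.5% and 80.9% of the reads. In 5980 pairs formed from the 2 leading members of a shared site, the minor member held at least 10% of the pair.

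The 5 pairs with most reads were in Gsg1, Gapdhs, Crisp2 and Spert. At the donor of Gsg1 shown above in the 5' UTR, the 800-base intron had 48817 reads and a 9733-base intron had 8821, a minor share of 15.3% (14.6% in R1, 16.1% in R2). Gapdhs joined 1 acceptor from donors 4292 bases apart, with a minor share of 47.1%, and R1 and R2 differed on the leader (43.9% and 52%). Crisp2, a sperm protein of the acrosome and tail, used donors 18 bases apart with 11445 and 7366 reads (minor share 39.2%, with 42.3% in R1 and 36.7% in R2). Another Gsg1 pair shared 49.1% against the rest, again with different leaders in R1 (52.1%) and R2 (46.5%), and Spert had a minor share of 19.7% (18.8% and 20.8%).

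Alternative acceptors had a preferred spacing and alternative donors did not share it. Among the pairs whose minor member held at least 10%, 2790 had a common donor, and 342 of them (12.3%) had acceptors exactly 3 bases apart, 26 were 4 bases apart and 0 were 2 bases apart. Of the 554 pairs within 30 bases, 440 (79.4%) were a multiple of 3 apart, and 342 of those 440 were the pairs at 3 bases. Of 3190 pairs with a common acceptor under the same minimum, 7 had donors 3 bases apart, and of 227 within 30 bases 52.4% were a multiple of 3 apart, the commonest distance being 12 bases. The higher share of multiples of 3 among acceptors thus rests on the pairs at 3 bases. All members are tagged as annotated, so these spacings describe the annotation used by the authors as well as the reads.

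**Figure D4:**
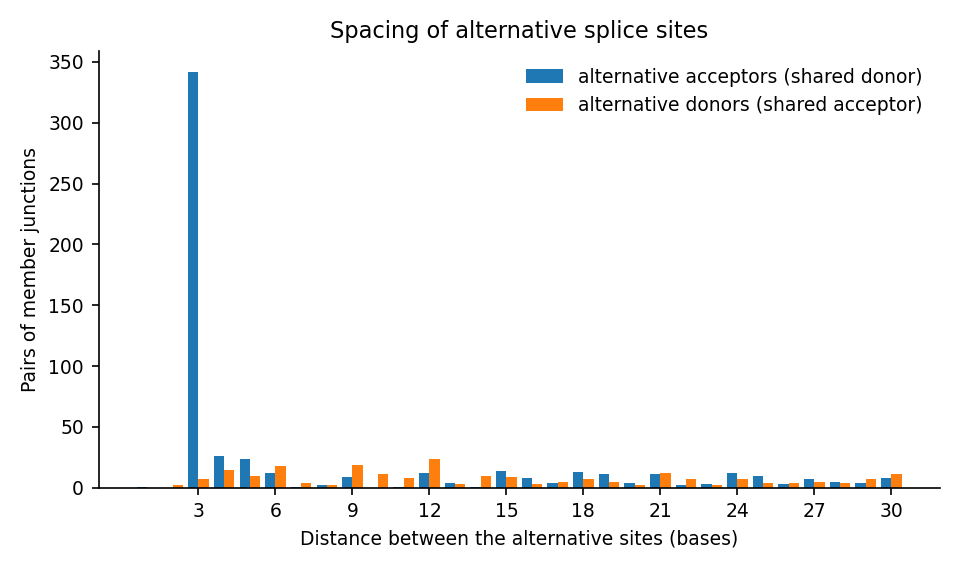
Number of pairs of members with a minor share of at least 10% (vertical axis) by the distance between their alternative sites, 1 to 30 bases (horizontal axis), for acceptors with a common donor and donors with a common acceptor. The 342 acceptor pairs at 3 bases stand above all other distances, the next highest being 26 at 4 bases.

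At 3 bases apart, the extra exon bases of the nearer acceptor are the end of the longer intron. Acceptors of this kind are known as NAGNAG sites. Since introns usually end with AG, AG was likely there beforehand and adds no separate support. All 332 pairs with a sequence had AG as the last 2 of the 3 extra bases, and the triplet was CAG in 270, TAG in 39, AAG in 21 and GAG in 2. Of these, 274 lay between coding exons, where the choice adds or removes 3 bases without a shift of frame. The nearer acceptor led in 193 of 342 pairs (56.4%), and the minor acceptor held a median of 32.7%, over pairs kept only where it held at least 10%. The same acceptor led in R1 and R2 in 277 pairs, and the share differed by a median of 5.85 percentage points.

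In the 3 pairs shown above, R1 and R2 gave close shares. Fam229b had 10518 reads at the near and 2005 at the far acceptor, so the far share was 16% (Wilson interval 15.4 to 16.7), with 16.4% in R1 and 15.7% in R2. Spata3, a spermatogenesis gene, had 62.3% at the far acceptor (62.2% and 62.5%). Rnf19b, a ubiquitin ligase, had 88.3% (88.4% and 88.3%). Near and far acceptors thus led in different genes, each with the same leader in R1 and R2.

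Members were evenly split by strand, 50.6% on plus and 49.4% on minus, with medians of 63 and 62 reads. Chromosomes differed more. The autosome medians ran from 47 reads on chromosome 13 to 82 on chromosome 7, and chromosome 7 held 10.6% of all member reads. The Prm1 junction alone held 19.9% of the reads on chromosome 16, and no other autosome had more than 3.56% in 1 member.

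Members on the X chromosome had fewer reads. Its 3854 members had a median of 27 (12 in R1, 15 in R2), against 64 on the autosomes (30 and 34), a ratio of 0.422, with 0.40 in R1 and 0.441 in R2. At least 1000 reads were found in 30 X members (0.778%) and in 8053 autosomal members (5.79%). Members covered 37.4% of the X introns in M21 and 50.3% of the autosomal ones. No other chromosome had a median near that of X except Y, with 109 members and a median of 16 reads.

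**Figure D5:**
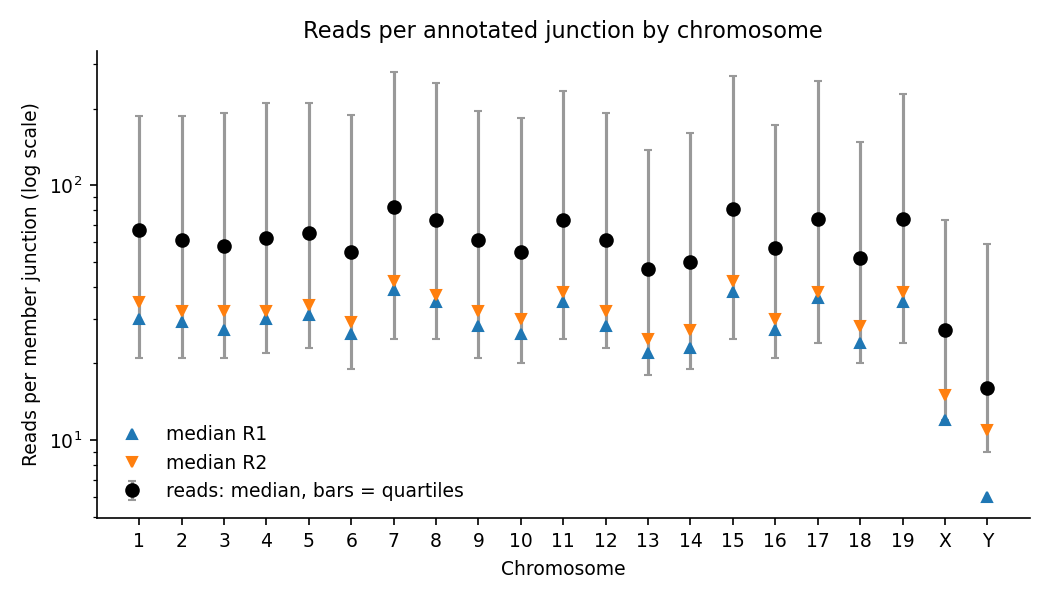
Reads per member (vertical axis, log scale) on each chromosome: black points are medians with bars from the lower to the upper quartile, triangles are the medians of R1 and R2. The X median is 27 and the Y median 16, under the autosomal range of 47 to 82.

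On X, the leading genes were Uba1, the ubiquitin-activating enzyme, with 16271 reads over 27 members, Cdk16 with 14074, Akap4 with 13579, Hdac6 with 11449 and Flna with 8466. The X member with most reads was in Akap4, the main scaffold of the sperm fibrous sheath, at chrX:6654953-6655389 with 2484 reads in R1 and 2901 in R2. These 5 genes held 20.5% of the named X reads. On Y, Uba1y had 2345 reads over 18 members, Eif2s3y 1371, Usp9y 293, Uty 227 and Ddx3y 182. The leading Y member was in Eif2s3y, a translation initiation factor gene, with 151 and 240 reads.

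R1 and R2 tracked each other across members, with r of log2(value + 1) at 0.937 and rho at 0.941. Of 56284 members with at least 100 reads, 1074 (1.91%) differed more than 2-fold after scaling to the totals, 474 towards R1 and 600 towards R2. Of the members with at least 100 reads, 44 had no R2 read and 1 had no R1 read. The 5 with most reads among the 44 were in Crisp1 with 1034 reads, Spink8 with 912, Serpina1f with 579, Wfdc16 with 365 and Ces5a with 360. Crisp1, Spink8, Serpina1f and Ces5a are known for expression in the epididymis, the duct next to the testis.

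Of the 8 genes of the epididymis list, 4 had named members (Crisp1, Spink8, Defb28 and Adam7), with 17280 reads in R1 and 20 in R2. The TPM of Crisp1 was 454 in library 1 against 0.2 in library 2, and Lcn8 and Lcn9 were at or near 0 in both. Rnase9 had no member, at TPM values of 0.9 and 0.02. Rnase10 was named only within 200 kb, with 3 reads in R1 and 9 in R2. Peritubular genes were higher in R1 as well, with 25796 against 16209 reads over 9 genes. Acta2, smooth muscle actin, had 8808 and 4647, Dcn (decorin) 1733 and 1081, Tagln 636 and 253, and Lum, the lowest, 37 and 23. Their part in the differences between R1 and R2 at other members was not tested.

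More than 2-fold towards R1 were also 17 members of Flna, a filamin, with 2370 against 1037 reads, 15 of Myh11, smooth muscle myosin, with 1726 against 616, and 9 of Akr1b7 with 2006 against 1. Towards R2, the genes with most such members were Sptbn4, with 9 members and 318 against 986 reads, Rgs22, with 8 and 915 against 2254, and Pde1c, with 6 and 660 against 1799. These sums hold only members picked for such a difference, so their imbalance follows from the choice. Over all its 48 members Flna had 5469 reads in R1 and 2997 in R2, and Myh11 over 42 had 2906 and 1190. Single members with the highest R2 share were in Slfn5os (0 in R1, 260 in R2), Meig1 (1 and 114), Gm13165 (2 and 179, named only within 200 kb), Kpna2 (6 and 394) and Larp1 (15 and 351). Summed over the 17 members of Larp1, R1 had 7940 and R2 9021 reads, whereas the 9 members of Kpna2 summed to 107 and 525.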

How the data were processed

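Members and gene lists were chosen with earlier results of these data known, and no test was made. The authors' deposited junction file (mm9, per the deposited readme) combines both replicates: column 7 is a whole-number read count, and column 8 is a fraction that the authors left unnamed, read here as the irreproducible discovery rate. Column 9 is a deposited second count of unnamed kind. The aligner and junction caller were not given in the sources used here. Per the file headers, the authors' gene tables (mm10, annotation M4) hold estimated expected counts and TPM for each replicate. All junction counts came to 21978582 in R1 and 23043393 in R2, and gene counts to 50374324 and 52788929. Repeated sequence and overlapping genes leave some counts uncertain.

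Introns were named with GENCODE M21 (mm10) by lengths and distances alone, tested on simulated data, and no coordinate was converted. An intron that belongs to several genes was left without a gene. Joins come from M21 transcripts. Correlations used log2(value + 1), over genes whose mean TPM reached 1. Wilson intervals are at 95% and cover counting error only. Junctions named in the text were the 10 with most reads, the 5 longest and shortest, the 5 of highest R1 and R2 share among those with at least 100 reads, the leaders on X and Y and the 5 leading pairs with a shared end. Genes were the 20 with most reads, and of each list the 3 highest and the lowest. Some items that these rankings select are not reported here. Other named items follow the same kind of ranking and were chosen after values were seen. Python 3.11.15, pandas 2.3.3, numpy 2.4.6 and scipy 1.17.1 were used.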

Additional observations from a re-analysis of the deposited data

How the results depend on the processing

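The number of members stayed within 1.5 times 142937 under every alternative, from 123164 (column 8 at most 0.01) to 178956 (no limit on column 8). Requiring both R1 and R2 above 0 left 141712, and a column 9 of at least 5 gave 142945, both chosen after seeing the data. The median of 63 reads became 84 with column 8 at most 0.01, 37 with no limit and 75 with at least 10 reads, and R1 or R2 alone gave 29 to 33. The share of reads in the top 1%, 27.1%, became 25.5% with column 8 at most 0.01, 30% (29.99) with no limit, 26.1% with at least 10 reads, and 17.2% by column 9, which was added after seeing the data. The median span of 1283 bases became 1248 with column 8 at most 0.01 and 1259 with at least 10 reads, with 1281 to 1282 over members present in R1 or R2 alone. The X to autosome ratio of 0.422 became 0.494 with column 8 at most 0.01 and 0.474 with at least 10 reads, against 0.40 to 0.441 in R1 and R2. The share of members matched to an intron, 97.9%, became 98.5% (98.45) and 98.3% (98.26) under those settings, 97.90 to 97.92 for R1 or R2 alone, 94.7% within 10 kb, 94% (93.96) with 3 agreeing neighbours and 99.2% within 200 kb. AG before and G after the join, 27.64%, became 27.56% and 27.6%. The relation to TPM, r = 0.896, became 0.883 with the highest member of a gene and 0.911 with no filter on TPM. It was 0.8928 with R1 and replicate 1 alone, and 0.8965 with R2 and replicate 2 alone. No result reversed. The planned share of introns with GT and AG ends was not run, since it needs a genome sequence not used here. No paired analysis was possible because the labels give 1 group. Depth limits the members near 5 reads, where R1 and R2 hold few reads each.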

Other observations

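Genes with introns in M21, a high TPM and no named member included, apart from Tnp1, Smcp and Odf1 described above, Rpl41, a ribosomal protein gene, with TPM values of 1739 and 1307 in replicates 1 and 2, Nupr1l with 779 and 673, the spermatogenic heat shock gene Hspa2 with 740 and 641, and Dnajb8 with 637 in both. The reads of these genes at junctions outside the members were not analysed here.

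Some members with many reads had a matched intron but no single gene. The Acrbp introns at chr6:125000071-125000451, chr6:125000668-125000864 and chr6:125000960-125001260, with 14202, 12354 and 11346 reads, also belong to Gm44597 in M21, so the value of Acrbp among the genes of round spermatids rests on its other 6 members.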
